A study of Mus musculus with 8 samples.

Results

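The genes described here carry glucose from its entry into the cell to lactate or to the pyruvate dehydrogenase complex. They were chosen by symbol, as 36 genes for glucose transporters, hexokinases, the phosphofructokinases and their regulators, the enzymes of the lower pathway, lactate dehydrogenases and monocarboxylate transporters, the pyruvate dehydrogenase complex and its kinases, and the pentose phosphate entry. Of the 36 members, 32 had a spot on the array (58 spots), among 22485 symbols and 33026 named spots in all. Every one of the 58 spots had at least 3 values per group and was tested, within 28073 tested spots for 19322 genes. Gpi1, Eno1, G6pdx and Pfkfb1 had no spot under their symbol in the annotation used.

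RNA came from the adrenal medulla of male mice on a 129/SvJ background, dissected away from the cortex. SDHD-ESR animals carried a floxed and a deleted SdhD allele (flox/-) and a tamoxifen-inducible Cre recombinase, +/- littermates carried flox/- without Cre, and +/+ littermates carried flox/+ without Cre. All received 100 µg/g tamoxifen intraperitoneally on each of 4 days from 9 weeks of age and were killed 1 week after the first injection, at 10 weeks. Each of the 8 two-colour arrays (4 for +/-, 4 for SDHD-ESR) set the Cy5-labelled RNA of 2 mice against the same Cy3-labelled pool of 8 +/+ mice, without a dye swap. The Cre was active throughout the body and not in chromaffin cells alone. Since the material was whole tissue, fewer cells of a type and less RNA per cell could not be told apart.

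Values are log2 ratios to the +/+ pool. The sign of every deposited value was turned, so that a value below 0 stands for less RNA than in the pool, because Sdhd in SDHD-ESR had been deposited above 0, and the direction of all results rests on that gene. After turning, the mean of Sdhd over 4 arrays was -1.09 ± 0.84 (SD) for +/- and -5.33 ± 0.60 (SD) for SDHD-ESR. Arrays correlated weakly with each other over the tested spots (r = 0.09 to 0.42), and their medians ran from -0.16 to 0.38. SDHD-ESR 1 stood 1 line out of step with the other arrays over 39.8% of the lines (called shifted here) and partly so over 15.0% (mixed), which leaves 45.1% aligned. Replicates 1 and 2 of each group shared the first slide and replicates 3 and 4 the second. The pool is a single control sample whose own spread is not measured, and p-values reflect the spread between arrays of paired mice.

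Glycolysis splits glucose into pyruvate, which the cell either reduces to lactate or oxidises in the mitochondria after the pyruvate dehydrogenase complex has turned it into acetyl-CoA. Mitochondrial complex II, of which Sdhd encodes a membrane subunit, oxidises succinate in the Krebs cycle, and succinate that builds up when the complex is lost can inhibit the prolyl hydroxylases that mark hypoxia-inducible factor (HIF) for destruction. HIF can bind DNA at the letters ACGTG. It is known to raise many genes of glucose uptake, glycolysis and lactate production. That is why these genes are read as a sign of a hypoxia-like response in complex II-deficient chromaffin tumours.

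Promoter sequences were available for 35 of the 36 members in RefSeq (build GRCm38.p6), as windows from 250 bases before to 50 bases after a transcription start, and 4 are shown because their genes are classic HIF targets of this pathway. Capitals mark ACGTG on either strand (CACGT on the strand printed). CACGTG holds both, overlapping.
Slc2a1 promoter, chr4:119108495-119108794, plus strand: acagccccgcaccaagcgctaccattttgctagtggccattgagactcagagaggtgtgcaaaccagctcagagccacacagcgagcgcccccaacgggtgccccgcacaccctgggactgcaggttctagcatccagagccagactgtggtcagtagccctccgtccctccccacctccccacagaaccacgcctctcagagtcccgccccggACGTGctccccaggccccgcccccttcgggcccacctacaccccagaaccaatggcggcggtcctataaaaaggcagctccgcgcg
Hk2 promoter, chr6:82774405-82774704, minus strand: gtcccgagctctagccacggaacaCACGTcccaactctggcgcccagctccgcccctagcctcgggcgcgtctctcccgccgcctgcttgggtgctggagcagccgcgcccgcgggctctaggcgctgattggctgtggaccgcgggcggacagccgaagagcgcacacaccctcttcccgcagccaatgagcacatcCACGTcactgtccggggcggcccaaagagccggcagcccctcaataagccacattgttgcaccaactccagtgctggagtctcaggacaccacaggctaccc
Pgk1 promoter, chrX:106186850-106187149, plus strand: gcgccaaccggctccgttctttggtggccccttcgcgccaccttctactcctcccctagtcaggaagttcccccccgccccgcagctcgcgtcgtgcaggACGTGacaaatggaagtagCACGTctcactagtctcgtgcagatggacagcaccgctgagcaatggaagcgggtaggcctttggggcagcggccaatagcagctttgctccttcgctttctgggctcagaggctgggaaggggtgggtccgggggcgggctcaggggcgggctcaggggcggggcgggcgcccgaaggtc
Ldha promoter, chr7:46845554-46845853, plus strand: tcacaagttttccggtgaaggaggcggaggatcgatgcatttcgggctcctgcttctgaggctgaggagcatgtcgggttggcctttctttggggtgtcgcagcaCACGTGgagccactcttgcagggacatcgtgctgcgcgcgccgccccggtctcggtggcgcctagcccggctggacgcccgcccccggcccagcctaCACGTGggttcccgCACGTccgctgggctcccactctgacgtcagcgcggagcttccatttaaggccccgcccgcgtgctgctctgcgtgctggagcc
The Slc2a1 window held 1 such stretch, those of Hk2 and Pgk1 held 2 each, and that of Ldha held 3. At least 1 window with these letters was found for 19 of the 35 members (54.3%), compared with 21.8% of all 27025 genes in the table. Counted by window, since some genes have several starts, the letters stood in 23 of 56 member windows (41.1%) and in 19.6% of all 32851. No window of Pdk1, Ldhb, Pfkp or Pdhx held them. The 18 members with the letters and a value differed between SDHD-ESR and +/- by a median of -0.17 (11 lower, 7 higher), and the 13 without by -0.19 (8 lower, 5 higher). Only these letters were searched, so other sequences that HIF may bind are not counted. The letters are a description of these windows and do not mark a bound site.

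The central comparison asked whether RNA of these genes moved when the remaining Sdhd allele was deleted, that is SDHD-ESR against +/-, in which the pool cancels. No member spot passed an adjusted p of 0.05 in limma (0 of 58, where 0.0% of all 28073 tested spots passed). Without adjustment, a p of 0.05 was reached by 0 of 58 spots in the higher and 0 in the lower direction, against 1.81% and 2.8% of all spots, and the methods' t-test gave 0 spots with adjustment and 0 without (3.77% of all spots without). The smallest adjusted p of a member was 0.953. Of the 32 genes, 19 were lower and 13 higher in SDHD-ESR, while 57.4% of all genes were lower. The median difference was -0.17 over members and -0.05 over all genes, with single members between -0.98 (Hk2) and 0.99 (Pgam2). One gene of 29 with a value on every array, Pdhx, had all SDHD-ESR arrays above all +/- arrays (0.878% of all genes), and none had them all below (1.27%). Left out in turn, +/- 1 raised the count of genes without overlap to 2 and +/- 2 to 3, where the share over all genes also rose from 2.15% to 5.75% and 5.54%. Without +/- 4 the median difference was -0.002.

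**Figure D1:**
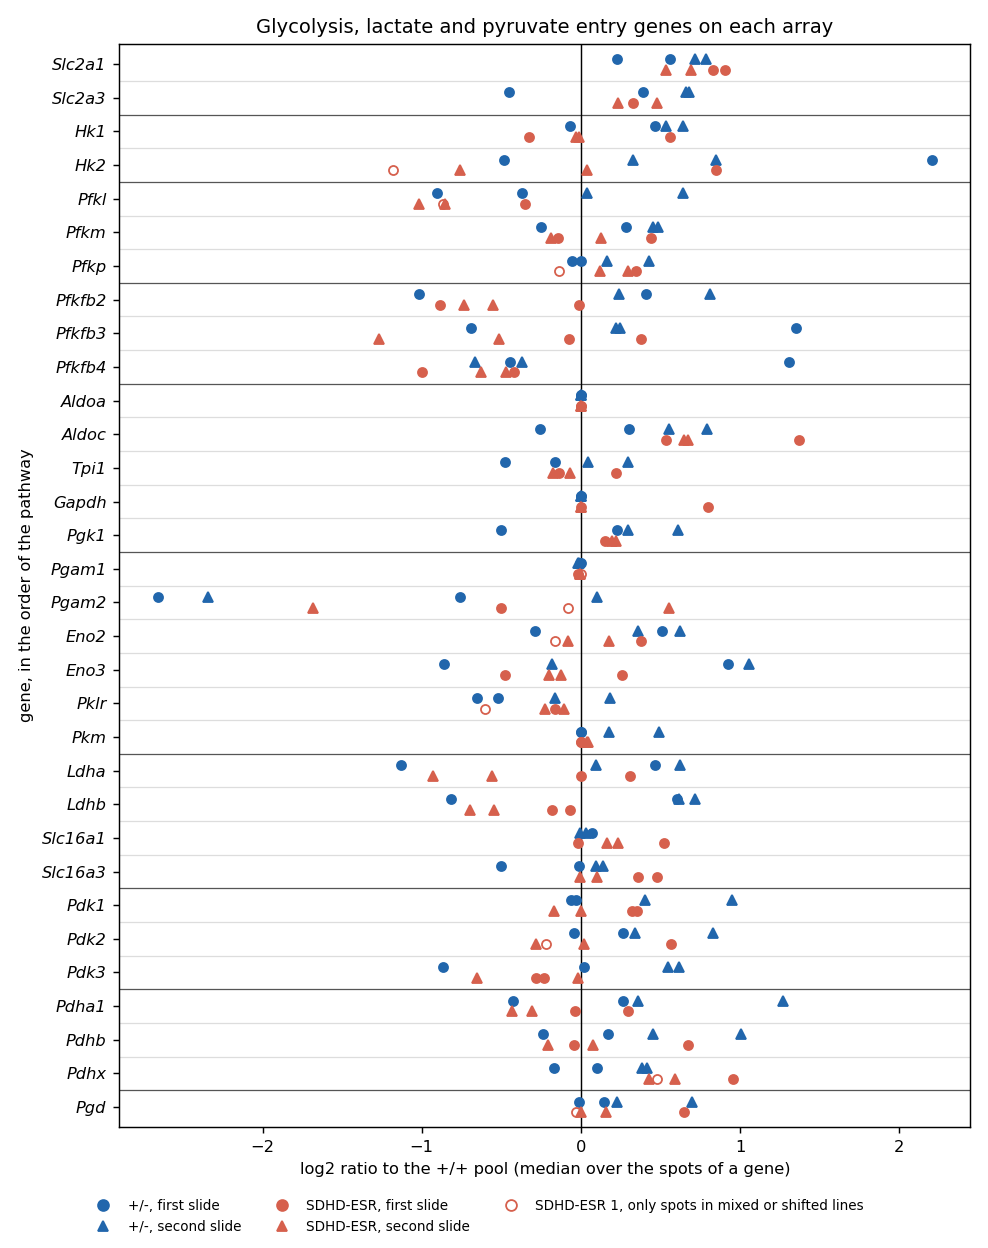
Log2 ratio to the +/+ pool (x axis) of each member gene (y axis, in pathway order) on each of the 8 arrays. Blue is +/- and red SDHD-ESR, circles are the first slide and triangles the second, and open circles are SDHD-ESR 1 where all spots of the gene lie in mixed or shifted lines. The groups overlap for every gene except Pdhx, and Aldoa, Pgam1 and most Gapdh values lie at 0.

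Glucose enters the cell through facilitative transporters. Slc2a1 (NM_011400) encodes GLUT1, the widespread glucose transporter, and its ratios were 0.23, 0.56, 0.72 and 0.79 on the 4 +/- arrays and 0.90, 0.83, 0.54 and 0.69 on the 4 SDHD-ESR arrays. It was the single member above the pool on all 8 arrays (1 of 29, with 7.27% of all genes), and the groups overlapped. The difference SDHD-ESR minus +/- was 0.17 ± 0.15 (SE) with an exact permutation p of 0.343. Slc2a3, the higher-affinity transporter GLUT3 known from neurons, was at -0.45, 0.39, 0.66 and 0.68 in +/- and at 0.33, 0.23 and 0.48 on the 3 SDHD-ESR arrays with a value. One +/- array lay below the pool, and the SDHD-ESR values lay inside the +/- range (difference 0.03 ± 0.32, SE).

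Hexokinases trap glucose in the cell by phosphorylating it. Hk2 (NM_013820), the inducible form of muscle and fat, had the lowest difference of all members. It was at 2.20, -0.49, 0.32 and 0.85 in +/- and -1.18, 0.85, -0.76 and 0.04 in SDHD-ESR. The difference of -0.98 ± 0.72 (SE, exact permutation p = 0.229) drew on +/- 1, the highest array, and on SDHD-ESR 1, the lowest, and the groups overlapped. The Hk2 spot lies in the shifted lines, and with these moved back by 1 line the value of SDHD-ESR 1 became 0.84 in place of -1.18 and the difference -0.48. Hk1, the form present in most tissues, was at -0.07, 0.47, 0.54 and 0.64 in +/- and at -0.33, 0.56, -0.01 and -0.03 in SDHD-ESR. As the median of 2 spots, 3 of the 4 +/- arrays were above the pool and 3 of the 4 SDHD-ESR arrays were below it. The spots did not share this side of the pool. In SDHD-ESR the higher spot was at -0.17, 0.74, 0.05 and 0.27 and the lower at -0.49, 0.38, -0.07 and -0.33. The difference of the gene value, -0.35 ± 0.24 (SE), had an exact permutation p of 0.286.

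Phosphofructokinase commits sugar to glycolysis. The liver-type subunit Pfkl was at -0.37, -0.90, 0.04 and 0.64 in +/- and at -0.86, -0.35, -1.01 and -0.85 in SDHD-ESR. All SDHD-ESR arrays were below the pool, yet they overlapped the 2 lower +/- arrays (difference -0.62 ± 0.36, SE, exact permutation p = 0.200), and SDHD-ESR 1 is in mixed lines for this spot. Pfkm, the muscle-type subunit, was measured by 10 spots of the same accession, whose differences lay between -0.29 and 0.05. As their median, Pfkm was at -0.25, 0.28, 0.45 and 0.48 in +/- and at -0.15, 0.44, -0.19 and 0.12 in SDHD-ESR. The groups overlapped, and the difference of -0.19 ± 0.22 (SE) was smaller than the SD within either group. Pfkp, the platelet-type subunit, was at 0.00, -0.06, 0.16 and 0.43 in +/- and at -0.14, 0.34, 0.12 and 0.30 in SDHD-ESR, with overlapping groups (difference 0.02 ± 0.15, SE).

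The bifunctional PFKFB enzymes set the level of fructose 2,6-bisphosphate, the allosteric activator of phosphofructokinase. Pfkfb2, the heart form, was at -1.02, 0.41, 0.81 and 0.24 in +/- and at -0.89, -0.01, -0.74 and -0.55 in SDHD-ESR. Pfkfb3, the inducible form with the strongest kinase activity, was at 1.35, -0.69, 0.24 and 0.22 in +/- and at -0.08, 0.38, -1.27 and -0.52 in SDHD-ESR. In both gene values the SDHD-ESR arrays of the second slide were lower than the +/- arrays of that slide. The groups overlapped on the first slide, and the differences over all arrays were -0.66 ± 0.44 and -0.65 ± 0.55 (SE, exact permutation p = 0.229 and 0.314). Pfkfb3 is the median of 2 spots, which differed by -0.95 and -0.36. In the latter spot the groups also overlapped on the second slide. The 2 spots of Pfkfb4, another hypoxia-responsive form, disagreed, one differing by -1.31 and the other by 0.00. As their median, Pfkfb4 was at -0.45, 1.31, -0.37 and -0.66 in +/- and at -0.9985, -0.42, -0.47 and -0.63 in SDHD-ESR, so that 1 +/- array stood apart and the other values overlapped (difference -0.59 ± 0.47, SE, exact permutation p = 0.257).

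Some spots of these genes, many of them in the aldolase and triose steps, stood at 0. A spot was counted so when it lay within 0.02 of 0 on at least 6 of the 7 arrays other than SDHD-ESR 1, and 9 of 58 member spots did (15.5%), against 619 of 28073 spots in all (2.2%). They belonged to Aldoa, Tpi1, Gapdh, Pgam1 and Ldha. Of 9 chromaffin cell markers tested, Th, Dbh, Chga, Chgb and Cyb561 also stood at 0, as did 5 of the 10 cortex markers tested. The other chromaffin markers, Pnmt, Slc18a1, Slc18a2 and Ddc, did not stand at 0 and differed by 0.52, -0.24, -0.15 and -0.32. As ratios, the values do not show how strongly a marker was expressed. Why these spots stood at 0 was not tested, and the spot intensities were not used here. Ratios at 0 on arrays whose other genes spread widely are not read as an absence of change.

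Aldoa, the aldolase of muscle and most tissues, had 1 spot, and it lay within 0.01 of 0 on all 8 arrays. Aldoc, the brain-type aldolase, was at -0.26, 0.30, 0.79 and 0.56 in +/- and at 0.54, 1.37, 0.65 and 0.67 in SDHD-ESR. All 4 SDHD-ESR arrays and 3 of the 4 +/- arrays were above the pool, the groups overlapped, and SDHD-ESR 2 was highest (difference 0.46 ± 0.29, SE, exact permutation p = 0.229). Tpi1, triose phosphate isomerase, had 1 spot at 0 and another that differed by 0.07. As their median it was at -0.17, -0.48, 0.04 and 0.29 in +/- and at 0.22, -0.14, -0.17 and -0.07 in SDHD-ESR, inside the +/- range. Gapdh, the oxidising enzyme often taken as a reference gene, had 7 spots of which 5 stood at 0. Its gene value was at 0 on 7 arrays and at 0.80 on SDHD-ESR 1, and the difference of 0.20 ± 0.20 (SE) became 0.00 when the shifted lines of that array were moved back. This holds for the median over spots. A Gapdh spot in aligned lines was at 2.46 on SDHD-ESR 1 and at 0 on the other arrays. The spot in mixed lines, which were not moved, stayed at 0.80. Pgk1, phosphoglycerate kinase, was at 0.23, -0.50, 0.30 and 0.61 in +/- and at 0.15, 0.22 and 0.20 in SDHD-ESR, which lay inside the +/- range (difference 0.03 ± 0.28, SE).

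In the lower pathway the muscle phosphoglycerate mutase Pgam2 had the largest positive difference, 0.99 ± 0.81 (SE, exact permutation p = 0.229). It was at -2.66, -0.76, 0.10 and -2.34 in +/- and at -0.08, -0.50, 0.55 and -1.69 in SDHD-ESR. The values of 2 +/- arrays and 1 SDHD-ESR array were far below the pool, and the groups overlapped. Of the 10 skeletal muscle markers, 8 were tested, 5 were higher and 3 lower in SDHD-ESR (median 0.14), their medians ranged from -0.35 to 0.08 over the +/- arrays and from -0.61 to 0.13 over the SDHD-ESR arrays, and none stood at 0. Whether muscle RNA took part in the Pgam2 values was not tested. Pgam1, the form of other tissues, stood at 0, between -0.02 and 0.00, and was the single member below the pool on all 8 arrays (1.92% of all genes), by no more than that.

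Enolases make phosphoenolpyruvate. Eno2, the neuronal form also used as a neuroendocrine marker, differed by -0.22 ± 0.24 (SE), and Eno3, the muscle form, by -0.37 ± 0.48 (SE), with values from -0.86 to 1.05 in +/- and from -0.48 to 0.26 in SDHD-ESR. No spot was named Eno1. The 2 spots named Eno1b, for which RefSeq lists Eno1 as a synonym, were left out of the counts: one stood at 0 and the other differed by -0.17. Pyruvate kinase makes pyruvate, and its widespread gene Pkm was at 0.00, 0.00, 0.18 and 0.49 in +/- and at 0.00, 0.00, 0.04 and 0.05 in SDHD-ESR. Both groups were at 0 on the first slide, so only the second slide carried a difference. Pklr, the form of liver and red cells, was at -0.52, -0.65, -0.16 and 0.19 in +/- and at -0.60, -0.16, -0.22 and -0.11 in SDHD-ESR, inside the +/- range (difference 0.01 ± 0.22, SE).

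Lactate dehydrogenase interconverts pyruvate and lactate. Ldha (NM_001136069), whose product favours lactate formation, was at 0.47, -1.13, 0.10 and 0.62 in +/- and at 0.31, 0.00, -0.93 and -0.56 in SDHD-ESR. The lowest array was a +/- one, and the groups overlapped (difference -0.31 ± 0.48, SE, exact permutation p = 0.543). Its 3 spots differed by -0.98, -0.08 and -0.03, the last of them standing at 0. The value of SDHD-ESR 2 is that of the spot at 0, with the others at -1.05 and 0.70, and SDHD-ESR 1 rests on 2 spots. The difference was -0.69 without +/- 2, -0.096 without SDHD-ESR 3 and -0.055 with only spots measured on all 8 arrays. Ldhb (NM_008492), whose product favours pyruvate, was at 0.60, -0.82, 0.72 and 0.62 in +/- and at -0.07, -0.18, -0.70 and -0.55 in SDHD-ESR. All 4 SDHD-ESR arrays were below the pool and below 3 of the +/- arrays, while +/- 2 was the lowest of all 8 (difference -0.66 ± 0.40, SE, exact permutation p = 0.143).

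The monocarboxylate transporters pass lactate across the plasma membrane. Slc16a3 encodes MCT4, the exporter of glycolytic cells, and was at -0.50, -0.01, 0.14 and 0.09 in +/- and at 0.36, 0.48, 0.00 and 0.10 in SDHD-ESR. SDHD-ESR was higher on the first slide and overlapped +/- on the second (difference 0.30 ± 0.18, SE, exact permutation p = 0.171). Of its 2 spots, 1 lies in the shifted lines. With these moved back, that spot was at -0.03 in place of 0.67 on SDHD-ESR 1 and the difference of the gene was 0.22. Slc16a1, which encodes the widespread MCT1, was at 0.07, -0.01 and 0.03 on the 3 +/- arrays with a value and at -0.02, 0.52, 0.16 and 0.23 in SDHD-ESR. Of the 4 SDHD-ESR values 3 were above the +/- range and the fourth was below it (difference 0.19 ± 0.13, SE, exact permutation p = 0.200).

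Pyruvate dehydrogenase kinases switch off the entry of pyruvate into the Krebs cycle. Pdk1 (NM_172665), the kinase best known as a HIF target, was at -0.06, -0.03, 0.40 and 0.95 in +/- and at 0.36, 0.32, -0.17 and 0.00 in SDHD-ESR. SDHD-ESR was the higher group for the first slide and the lower for the second, with no overlap within either slide. The difference over all arrays was -0.19 ± 0.27 (SE, exact permutation p = 0.486). The Pdk1 mean in +/-, 0.31, has the size that the study prints for this accession but the opposite sign. In SDHD-ESR size and sign are the same as printed. With the printed sign for +/-, SDHD-ESR would be the higher group over all arrays. The Ldha spot that differed by -0.08 (mean 0.04 in +/-) likewise has the printed size with the opposite sign in +/- alone. For Hk2 the means, 0.72 in +/- and -0.26 in SDHD-ESR, have the printed size and sign in both groups. Pdk2, the most widespread kinase, was at 0.26, -0.05, 0.34 and 0.83 in +/- and at -0.22, 0.57, -0.28 and 0.02 in SDHD-ESR, with overlapping groups (difference -0.32 ± 0.26, SE). Pdk3 was at 0.02, -0.87, 0.61 and 0.55 in +/- and at -0.28, -0.23, -0.65 and -0.02 in SDHD-ESR. All 4 SDHD-ESR values of Pdk3 were below the pool, and +/- 2 was the lowest of all (difference -0.38 ± 0.37, SE).

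The complex itself gave both directions. Pdhx (NM_175094), which anchors the E3 component in the complex, was at -0.17, 0.10, 0.38 and 0.41 in +/- and at 0.48, 0.95, 0.43 and 0.59 in SDHD-ESR. The groups did not overlap, though the nearest arrays of the groups were apart by less than the SD within either of them. The difference of 0.43 ± 0.18 (SE) had an exact permutation p of 0.0286, the smallest that 4 against 4 arrays can give, and in limma over all spots an unadjusted p of 0.059 and an adjusted p of 0.953. The spot lies in the shifted lines. Moved back by 1 line, SDHD-ESR 1 was at 1.00 and the difference 0.56, and without the value of that array the difference was 0.48. Pdha1, the E1 alpha subunit that the kinases phosphorylate, was at 0.26, -0.43, 0.36 and 1.27 in +/- and at -0.04, 0.30, -0.43 and -0.31 in SDHD-ESR. The lowest arrays of the groups were alike and +/- 4 was highest (difference -0.49 ± 0.38, SE, exact permutation p = 0.286). Pdhb, the E1 beta subunit, was at 0.17, -0.24, 0.45 and 1.00 in +/- and at -0.05, 0.67, -0.21 and 0.08 in SDHD-ESR, inside the +/- range. It differed by -0.22 ± 0.32 (SE), and its 3 spots by -0.61, 0.13 and -0.27. Pgd, the 1 pentose phosphate member with a spot, makes NADPH and differed by -0.07 ± 0.22 (SE).

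**Figure D2:**
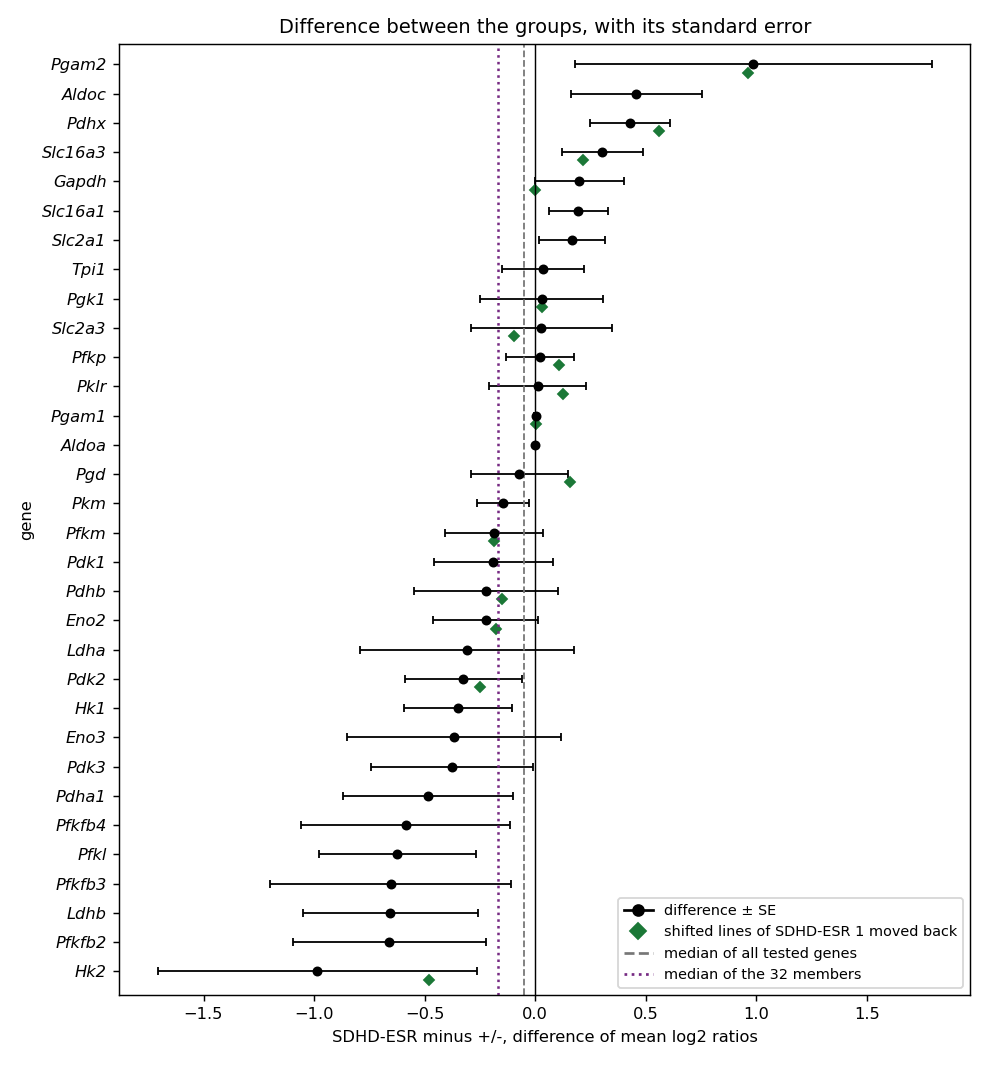
Difference SDHD-ESR minus +/- in mean log2 ratio (x axis) for each member gene (y axis), as a black point with its standard error over 4 arrays per group, or 3 where an array had no value. Green diamonds give genes with a spot in shifted lines of SDHD-ESR 1 after moving these back by 1 line, the dashed line is the median of all tested genes (-0.05) and the dotted line that of the members (-0.17). Hk2 moved most, from -0.98 to -0.48.

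Against the +/+ pool, no member spot passed an adjusted p of 0.05 in limma. In SDHD-ESR 0 of 58 passed (0.0427% of all spots), while 4 higher and 3 lower spots reached a p of 0.05 before adjustment (10.3% and 7.05% of all spots). The methods' t-test gave 0 with adjustment and 8 without (11.6% of all spots without). The higher spots were of Slc2a1 (0.74, adjusted p = 0.102), Pdhx (0.61, adjusted p = 0.123), Aldoc (0.81, adjusted p = 0.138) and Pdhb (0.49, adjusted p = 0.286), and the lower ones of Pfkl, Pfkfb4 and Ldha. In +/- 0 of 58 passed (0.0% of all spots), while 4 higher and 2 lower spots reached a p of 0.05 before adjustment (13.2% and 5.75% of all spots). The methods' t-test gave 0 with adjustment and 4 without (14.7% of all spots without). The higher spots were of Slc2a1 (0.57, adjusted p = 0.124), Pdhb, Hk1 and Pdk2, and the lower ones of Pfkfb4 and Pgam2.

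These ratios carry any dye bias, since no array had the dyes swapped. All 4 SDHD-ESR arrays were above the pool for 3 of 30 genes with a value on each (Slc2a1, Aldoc and Pdhx, 17.2% of all genes). They were all below for 7 of 30 (9.6% of all genes), namely Pfkl, Pfkfb2, Pfkfb4, Pklr, Ldhb, Pdk3 and Pgam1. All 4 +/- arrays were above for 2 of 31 (18.0% of all genes) and below for 1 (8.77%). Of those 3 genes, Slc2a1 alone was not at 0.

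With each array centred on its median, which moved the median of all genes from -0.05 to 0.02, 2 of 58 member spots passed in SDHD-ESR against the pool (1.05% of all spots): Slc2a1 (0.69, limma adjusted p = 0.0402) and Pdhx (0.57, limma adjusted p = 0.0477). No member spot passed for SDHD-ESR against +/- (0 of 58, with 0.00356% of all spots), where these 2 had limma adjusted p = 0.844 and 0.721. After quantile normalization 2 of 58 passed in SDHD-ESR against the pool (1.73% of all spots), again Slc2a1 and Pdhx, and 2 of 58 in +/- (2.97% of all spots), Slc2a1 and Pdhb. In that setting 3 of 29 members had no overlap between SDHD-ESR and +/- (4.07% of all genes). After centring, the SDHD-ESR arrays of Slc2a1 were at 0.88, 0.64, 0.63 and 0.62 and those of +/- at 0.39, 0.57, 0.46 and 0.41, so that the groups no longer overlapped. Slc16a3 did not overlap either, at 0.33, 0.29, 0.09 and 0.04 against -0.34, 0.00, -0.13 and -0.29. With Pdhx, 3 of 29 members then had groups without overlap, beside 4.1% of all genes. With the shifted lines also moved back, an alternative added after seeing the data, the groups of Slc16a3 overlapped. After centring 17 of 32 members were lower in SDHD-ESR, beside 47.5% of all genes.

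The slides gave different pictures of the same difference. On the first slide 9 of 32 members were lower in SDHD-ESR (31.5% of all genes) and the members' median was 0.17, with 0.22 for all genes. On the second slide 27 of 32 were lower (77.3% of all genes) and the median was -0.35, with -0.33 for all genes. In 19 of 32 members the difference changed from above 0 (first slide) to below 0 (second slide), as in 53.6% of all genes. Ldha went from 0.48 to -1.10, Pdha1 from 0.21 to -1.18 and Pdk1 from 0.38 to -0.76. Hk2 was lower on both (-1.02 and -0.95), Pgam2 higher on both (1.42 and 0.56), and Pdhx higher on both (0.75 and 0.11). These values use SDHD-ESR 1 as deposited, and the spots of Hk2, Pgam2 and Pdhx lie in its shifted lines. Moved back by 1 line, its Hk2 value was 0.84 in place of -1.18. SDHD-ESR 2 was at 0.85 and the +/- arrays of the first slide at 2.20 and -0.49. The lower Hk2 on the first slide thus rests on the deposited value. Moved back, SDHD-ESR 1 was at -0.18 for Pgam2 and 1.00 for Pdhx. Within a slide each value rests on 2 against 2 arrays. With arrays centred, 21 of 32 members had the same sign on both slides, and 50.7% of all genes did.

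**Figure D3:**
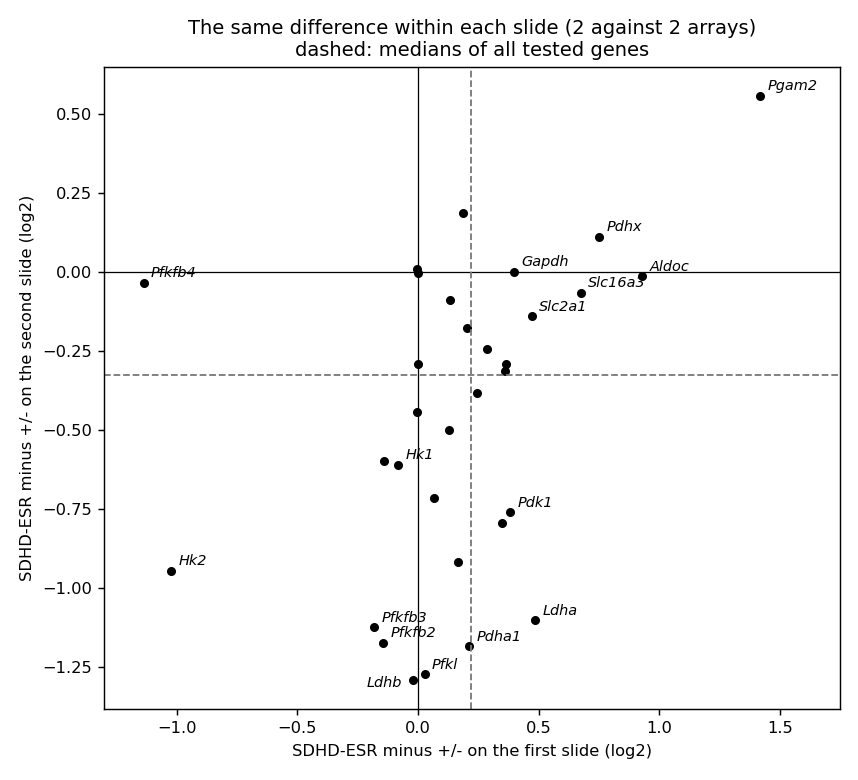
Difference SDHD-ESR minus +/- (log2) on the second slide (y axis) against that on the first (x axis), each point a member gene and each value from 2 against 2 arrays. Dashed lines are the medians of all tested genes, 0.22 (first slide) and -0.33 (second slide), and solid lines mark 0. Most members lie at or below 0 on the second slide whatever their value on the first.

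Markers of fat also differed between the arrays. Of 8 adipocyte markers 7 were tested, all 7 were lower in SDHD-ESR (median -1.14), and none stood at 0. Their median was 1.34, -0.98, 0.59 and 1.02 on the +/- arrays and 0.57, -0.06, -1.44 and -1.45 on the SDHD-ESR arrays. Within slides, their median difference was 0.43 (first) and -2.33 (second). The 3 arrays lowest in this list, +/- 2, SDHD-ESR 3 and SDHD-ESR 4, were also the 3 lowest for Ldha, Ldhb, Pfkfb3, Pdha1 and Aldoa, 5 of 29 members (17.2%), and for 5.15% of all 16168 genes with a value on every array. Aldoa followed this order within values at 0. For Ldha and Pfkfb3 it is the order of the medians over spots, and not every spot followed it. In the Ldha spot in mixed lines, SDHD-ESR 2 (-1.05) was lower than SDHD-ESR 4 (-0.79). In a Pfkfb3 spot, +/- 4 (-0.75) was lower than SDHD-ESR 4 (-0.25). Slc2a1 did not follow the adipocyte order. The part of fat RNA in the values of these members was not tested.

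**Figure D4:**
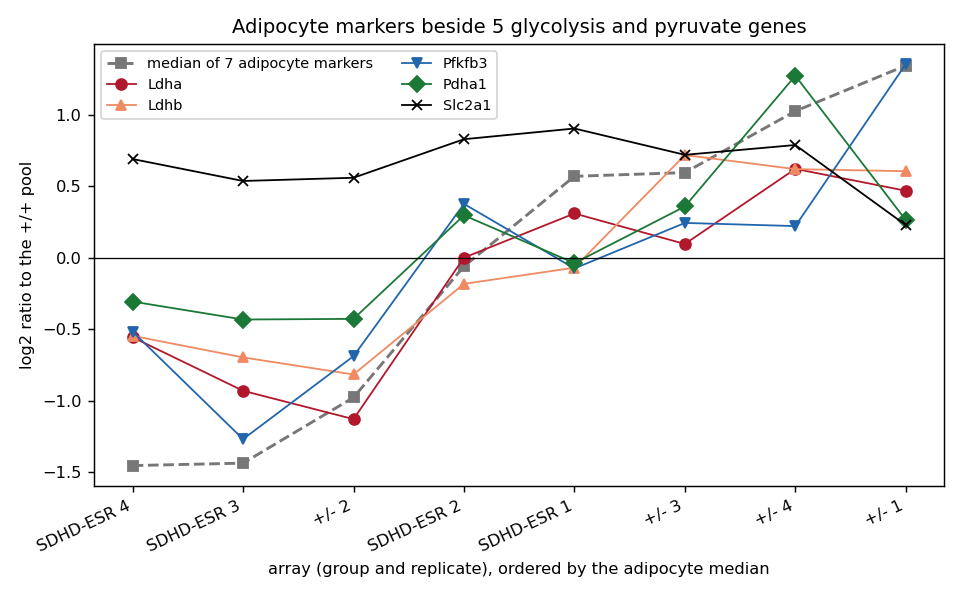
Log2 ratio to the +/+ pool (y axis) of the median of 7 adipocyte markers (grey squares) and of Ldha, Ldhb, Pfkfb3, Pdha1 and Slc2a1 on each array (x axis, ordered by the adipocyte median). As medians over spots, Ldha, Ldhb, Pfkfb3 and Pdha1 are lowest on the 3 arrays at the left. The adipocyte median there is between -1.45 and -0.98. Slc2a1 is above 0 throughout.

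Other genes of sugar metabolism, in a list of 43 that holds glycogen, gluconeogenic, pentose phosphate and pyruvate carrier genes, gave a similar count. Of 40 tested, 27 were lower and 13 higher in SDHD-ESR (median -0.14), where 57.4% of all genes were lower, and none passed an adjusted p of 0.05 in limma, where the smallest was 0.953. Pdp1, the phosphatase that reactivates pyruvate dehydrogenase, was named after its values were seen. Of the listed genes with a value on every array, it was the 1 whose groups did not overlap (2.15% of all such genes, 1.27% in this direction). Its gene value is the median of 3 spots, not all of them in aligned lines of SDHD-ESR 1. Pdp1 was at 0.31, 0.15, 0.78 and 0.51 in +/- and at -0.12, 0.12, 0.05 and -0.17 in SDHD-ESR. All 4 SDHD-ESR arrays were below the +/- range (difference -0.46). The lowest p of a single Pdp1 spot in limma was 0.0343 unadjusted and 0.953 adjusted. Pdk4, the kinase of fasting, ranged from -2.01 to 1.83 in +/- and from -1.99 to 0.08 in SDHD-ESR. Pcx and Taldo1 stood at 0 on all arrays.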

How the data were processed

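RNA of adrenal medulla was hybridised to 8 two-colour 4x44k arrays. The authors deposited 1 value table of log ratios of Cy5 to Cy3 for 45220 spots per array, read here as log2, since 16.0% of antilogs to base 2 were whole numbers (0.174% to base e). The scanning and normalization behind them are only partly described in the sources used here, and spot intensities were not used. Values stood in another order than the probes. The layout used put copies of 1 accession at a median SD of 0.206, against 0.787 in file order. Signs were turned, and whole numbers (9.54% to 15.6% of an array) were treated as missing.

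Spots with a symbol and at least 3 values per group were tested with limma 3.58.1 (R 4.3.3), group means only, with Benjamini-Hochberg adjustment over all 28073. Gene values are medians over spots, and exact permutation tests over arrays are two-sided. The limma step was tested on simulated data. Python 3.11.15 was used for the rest. The number of columns of samples left unused was 0.

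Members and lists were chosen with earlier results of these data known. Values on every array were given for Slc2a1, Hk2, Ldha and Pdk1, for members without overlap or past the threshold, for up to 8 members at each end of the difference, and for paralogs at the same step. Alternatives were centring, quantile normalization, complete probes, slide and replicate blocks, the methods' t-test, single slides, misplaced lines missing or moved back, values near 0 missing, small whole numbers kept, spot means and leaving out each array. Leaving out spots at 0, and moving lines back together with centring, were added after seeing the data. Replicates within a group are separate pairs of mice. The number of arrays limits the precision.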

Additional observations from a re-analysis of the deposited data

Results flagged for a closer look

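In 63 groups of 4 arrays (61 of single members and 2 of the members' median), 4 had a lone array whose gap to the nearest other exceeded Dixon's critical share of the group's range, a limit that chance passes in about 1 in 20 groups. Pfkfb4 was at 1.3054 on +/- 2, with the other +/- arrays between -0.6644 and -0.3677. Ldhb was at -0.8162 on +/- 2 and between 0.6048 and 0.7178 on the others. Aldoc was at 1.37 on SDHD-ESR 2 and between 0.5361 and 0.6733 on the others. Gapdh was at 0.7993 on SDHD-ESR 1, where the spot that gave the median lies in mixed lines, and between -0.0006 and 0.0001 on the others.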

How the results depend on the processing

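For SDHD-ESR minus +/-, 0 member spots passed under every alternative run. Against the pool, 2 passed in SDHD-ESR after centring each array and 2 after quantile normalization (Slc2a1 and Pdhx in both, 1.73% of all spots in the latter), and 2 in +/- after quantile normalization (Slc2a1 and Pdhb, 2.97% of all spots). The count of members without overlap was 3 after centring and 3 after quantile normalization (Pdhx, Slc16a3 and Slc2a1, 4.1% and 4.07% of all genes), 2 with only probes measured on all 8 arrays (Pdhx and Pfkfb4, 2.21%), 0 with the misplaced lines of SDHD-ESR 1 missing, which leaves 19 genes with a value on every array (2.57%), and 2 with the shifted lines moved back and arrays centred (Pdhx and Slc2a1, 4.78%, an alternative chosen after seeing the data). Leaving out 1 array at a time gave 1 to 3 such genes, with Pfkfb2 added without +/- 1 and with Ldhb and Pdk3 added without +/- 2, while the share over all genes ran from 2.93% to 8.15% (5.75% and 5.54% for those arrays). The first slide alone gave a median difference of 0.175. That median ranged from -0.238 to -0.002 when 1 array was left out, the value nearest 0 coming without +/- 4. Except on single slides, 22 of 32 members kept their sign in every alternative run (16 lower, 6 higher).

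With the replicate number as a block, 0 member spots passed in each comparison, the median difference was -0.189 (-0.066 over all genes) and 2 members did not overlap (Pdhx and Pfkfb4, 2.21% of all genes), as this fit needs all 8 arrays. Whether the numbers pair the samples cannot be decided from correlations this weak. Same-numbered arrays deviated together with correlations of 0 to 0.08. Other pairs of a +/- and an SDHD-ESR array had correlations of -0.11 to 0.03. With 4 arrays per group, weak correlation between arrays and 9 member spots at 0, differences as large as those measured here could go undetected.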

Other observations

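Among markers of other cells in the medulla, all 9 tested leukocyte markers were lower in SDHD-ESR (median difference -0.60). Their median was -0.20, 0.12, 0.32 and 0.17 on the +/- arrays and -0.74, -0.33, -0.66 and -0.57 on the SDHD-ESR arrays. These medians did not overlap, but single markers did. On SDHD-ESR 1, which is out of step over part of its lines, Coro1a (1.02) and Laptm5 (0.62) were above every +/- array. The median difference of the leukocyte markers was below 0 on both slides (-0.32 and -0.88). Of 8 endothelial markers, 7 were lower (median difference -0.28), with slide medians of 0.00 (first) and -0.67 (second). These lists were described without a test.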
